A study of Mus musculus with 221 samples.

Results

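The 9 genes described here serve Hedgehog reception and response and were examined in single cells of the embryonic mouse neocortex: the co-receptors Gas1, Cdon and Boc, the receptor Ptch1, the signal transducer Smo, the transcription factors Gli1, Gli2 and Gli3, and the Gli-binding inhibitor Sufu. They were chosen by name, and all 9 were found among the 23244 features of the expression table. The data are 221 single-cell transcriptomes from the microdissected medial neocortex of C57BL/6J embryos at E18.5, labelled female. No group was treated, and the cells came from 2 pools of 8 neocortices each, where 99 of the cells came from pool 2, the others from pool 1. By its title the study is about Hopx-dependent basal radial glia that resemble those of humans.

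Hedgehog proteins bind Ptch1 together with Gas1, Cdon or Boc on the cell surface, which lifts the block that Ptch1 places on Smo. Smo then acts in the primary cilium on Gli proteins held by Sufu, so that Gli2 turns into an activator and less Gli3 is cut to its repressor form, while Gli1 and Ptch1 are themselves transcribed as targets. In the developing cortex Gli3 is known for its part in dorsal patterning and in the progenitor cell cycle, and Hedgehog signalling for its part in the expansion of basal progenitors.

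In GRCm38, with the GENCODE M21 annotation, 3 of the 9 genes lie on chromosome 13: Gas1 at chr13:60174405-60177365 on the minus strand, Gli3 at chr13:15463235-15730026 on the plus strand and Ptch1 at chr13:63508328-63573598 on the minus strand. The others are Cdon at chr9:35421128-35507652 (plus), Boc at chr16:44485049-44558897 (minus), Smo at chr6:29735503-29761365 (plus), Gli1 at chr10:127329882-127341974 (minus), Gli2 at chr1:118834132-119053619 (minus) and Sufu at chr19:46396896-46488804 (plus). The TPM of a gene counts fragments over all its transcripts, so it carries no information on which exons were read.

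RefSeq promoter windows on GRCm38.p6, from 250 bases before to 50 bases after the annotated start, were matched by symbol for 7 of the 9 genes. That of Gas1 is shown because it was the member detected in the most cells, and those of Gli2 and Gli3 because they were the Gli factors detected in the most radial glia-like and Eomes-positive cells. They are read 5′ to 3′ on the gene's own strand, from chr13:60177486-60177785, chr1:119053570-119053869 and chr13:15463473-15463772. Capitals mark a GC box, GGGCGG or its reverse complement.
Gas1: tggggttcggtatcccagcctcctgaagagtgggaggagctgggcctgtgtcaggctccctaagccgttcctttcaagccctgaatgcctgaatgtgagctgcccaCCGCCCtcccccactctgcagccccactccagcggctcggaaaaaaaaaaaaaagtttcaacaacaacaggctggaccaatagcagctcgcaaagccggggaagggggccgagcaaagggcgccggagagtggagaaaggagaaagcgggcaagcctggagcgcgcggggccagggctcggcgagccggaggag
Gli2: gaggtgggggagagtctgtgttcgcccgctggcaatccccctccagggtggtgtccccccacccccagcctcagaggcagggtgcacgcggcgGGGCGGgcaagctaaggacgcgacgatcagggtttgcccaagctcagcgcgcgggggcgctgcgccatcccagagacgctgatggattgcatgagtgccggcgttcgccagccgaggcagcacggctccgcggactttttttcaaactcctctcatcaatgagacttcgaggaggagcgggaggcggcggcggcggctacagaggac
Gli3: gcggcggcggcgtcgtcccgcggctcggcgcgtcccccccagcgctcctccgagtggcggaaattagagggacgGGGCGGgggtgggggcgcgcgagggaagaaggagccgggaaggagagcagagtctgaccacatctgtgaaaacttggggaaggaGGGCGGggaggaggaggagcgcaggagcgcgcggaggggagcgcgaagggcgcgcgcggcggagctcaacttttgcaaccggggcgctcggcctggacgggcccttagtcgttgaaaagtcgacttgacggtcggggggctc
The Gas1 and Gli2 windows hold 1 GC box each and that of Gli3 holds 2, a motif found on either strand in 35.7% of all 32851 mouse promoter windows of this length. The letters GACCACCCA, the core sequence bound by Gli proteins, were searched on both strands and are in none of the 7 windows matched, Ptch1 included, against 0.253% of all windows. The 3 windows are rich in G and C, at 62.3% for Gas1, 67.3% for Gli2 and 71% for Gli3, where the median of all windows is 52.7%.

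A gene was called detected in a cell when its TPM, a transcript share corrected for length, lay above the lowest value of that cell, which all features without signal share and which was between 1.33 and 2.998 TPM. Cells were placed by marker genes outside the 9. The Eomes-positive class holds the 35 cells with Eomes, a T-box factor of intermediate progenitors. The radial glia-like class holds the 35 cells without Eomes and with at least 5 of 8 markers (Slc1a3, Fabp7, Hes5, Hes1, Vim, Sox2, Sox9 and Mfge8). The excitatory neuron-like class holds 68 cells of pool 1 and 45 of pool 2, the interneuron-like class 24, and 14 cells were left unplaced. Detected genes per cell had a median of 4281 in radial glia-like cells, 4246 in Eomes-positive, 3982 in excitatory neuron-like and 3367 in interneuron-like cells. The values carry no read numbers, which leaves the depth of each cell unknown, and intervals given here cover the counting of cells only. Endothelial and meningeal markers were at the lowest value in all radial glia-like and Eomes-positive cells (0 of 5 detected in each list). Markers of other cell types were present, with 3 of 4 astrocyte markers in either class, 3 of 5 oligodendrocyte precursor markers in radial glia-like and 2 of 5 in Eomes-positive cells, 3 and 4 of 5 mural, 2 and 1 of 5 microglial, 2 of 4 Cajal-Retzius in either, 4 of 4 blood in either, and 4 and 8 of 8 interneuron markers. The summed level of the astrocyte markers ran from 5.92 to 7786 TPM in radial glia-like cells (median 260 TPM), from 6.27 to 2229 TPM in Eomes-positive cells (median 7.75 TPM) and from 5.33 to 500.4 TPM in excitatory neuron-like cells (median 7.69 TPM). Of these genes Aldoc was in 27 of 35 radial glia-like, 13 of 35 Eomes-positive and 37 excitatory neuron-like cells (32.7%), while S100b was at the lowest value in all 3 classes. Gfap was in 8 of 35, 2 of 35 and 2.65% of cells of these classes, and Aldh1l1 in 5 of 35, 1 of 35 and 0.885%. For oligodendrocyte precursors the sums had medians of 9.03, 9.28 and 9.36 TPM in these classes and maxima of 2003, 249.9 and 349 TPM, with Sox10 at the lowest value in both progenitor classes. Olig1 was in 9 of 35 radial glia-like cells, 7 of 35 Eomes-positive cells and 12.4% of excitatory neuron-like cells. Its mean was 184 TPM in radial glia-like cells. Pdgfra was in 1 of 35 cells of each progenitor class. The part of cells with markers of other types in the results was not tested.

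The radial glia-like class is mixed by its own markers. Fabp7 was also detected in 95.6% of excitatory neuron-like cells, and Neurod6, a transcription factor of cortical excitatory neurons, reached 100 TPM in 74.3% of radial glia-like cells, 91.4% of Eomes-positive cells and 98.2% of excitatory neuron-like cells. Results are therefore also given for the 15 radial glia-like cells with 7 or 8 of the 8 markers, a limit added after the marker numbers were seen, and for 16 radial glia-like cells taken from clusters of the markers. Each pool gave 7 or 8 cells to either set. Without the cells at 100 TPM of Neurod6, which leaves 3 and 6 radial glia-like cells in pools 1 and 2, the log2 difference of Gas1 was 2.81 from excitatory neuron-like cells (limma adjusted p = 0.0752) and 2.93 from interneuron-like cells.

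The co-receptor Gas1, a GPI-anchored protein, was the member most often detected, in 36 of 221 cells (16.3%, exact 95% interval 11.7 to 21.8%). It was above the lowest value in 14 of 35 radial glia-like cells, 7 of 35 Eomes-positive cells, 10 excitatory neuron-like cells and 2 of 24 interneuron-like cells, or 40%, 20%, 8.85% and 8.33%. In the 7 radial glia-like cells of pool 1 with Gas1 it stood at 250, 211, 125, 81.5, 53.9, 44.2 and 1.78 TPM, and in the 7 of pool 2 at 169, 116.4, 86.7, 65.3, 61.4, 36.6 and 29.6 TPM. Thus 13 of the 14 cells stood far above the lowest value, and the 1 at 1.78 TPM barely did. In Eomes-positive cells Gas1 stood at 266, 32.8 and 7.20 TPM in pool 1 and at 173, 166, 108.1 and 1.64 TPM in pool 2. The excitatory neuron-like cells with Gas1 stood at 4.76 to 139 TPM, so that the ranges of these 3 classes overlapped, while the 2 interneuron-like cells stood at 2.21 and 10.3 TPM, below 13 of the 14 radial glia-like cells. The mean over all cells of a class was 39.1 TPM in radial glia-like, 23.1 TPM in Eomes-positive, and for neurons 6.70 TPM in the excitatory neuron-like class and 2.38 TPM in the interneuron-like class.

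On the log2(TPM + 1) scale the pool means of Gas1 were 3.57 and 3.06 in radial glia-like cells, 2.201 and 2.50 in Eomes-positive cells, 1.84 and 1.84 in excitatory neuron-like cells and 1.60 and 1.83 in interneuron-like cells (pools 1 and 2). Both radial glia-like means lay above all 6 others. Pools served as replicates (n = 2 for each class), and differences were fitted with limma over 10722 genes and p-values adjusted by the Benjamini-Hochberg method. Called genes are those with an adjusted p under 0.05 that differ by 1 or more on the log2 scale.

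Against interneuron-like cells Gas1 rose in radial glia-like cells by 1.60 ± 0.35 on the log2 scale (SE, limma adjusted p = 0.0391), higher in both pools (by 1.97 and 1.23). It was the 1 member called of the 7 tested in this comparison, where 1.75% of all tested genes were called (188 genes) and 55.6% were above 0. The interneuron-like class had 8 cells in pool 2 and a median of 3367 detected genes, against 4281 in radial glia-like cells. The call was lost without the filter on low values (difference 1.60, adjusted p = 0.0622), with profiles weighted by cell number (1.60, adjusted p = 0.0782), with a gate of 4 markers (1.44, adjusted p = 0.0686), without the cells at 100 TPM of Neurod6 (2.93, adjusted p = 0.0547) and with cells of name suffix A alone (1.58, adjusted p = 0.205). Over 12 alternatives adjusted p ranged from 0.00116 to 0.205.

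Against excitatory neuron-like cells Gas1 differed by 1.47 ± 0.35 (adjusted p = 0.153), and against Eomes-positive cells by 0.96 ± 0.35 (adjusted p = 0.473). Neither passed, and 0% of the 10722 genes were called in either comparison by limma, while 868 and 889 genes had an unadjusted p below 0.05. Weighting the profiles by cell number (1.44, adjusted p = 0.0197) and a gate of 6 markers (2.01, adjusted p = 0.0324) called Gas1 against excitatory neuron-like cells, along with 1.39% and 0.699% of all tested genes, and neither called it against Eomes-positive cells. With the 15 radial glia-like cells of 7 or 8 markers the difference in Gas1 grew to 3.15 ± 0.41 against excitatory neuron-like cells (adjusted p = 0.00401) and to 2.64 ± 0.41 against Eomes-positive cells (adjusted p = 0.0181). Of all tested genes 4.08% and 0.858% were then called. With the 16 cells from marker clusters the differences were 3.37 ± 0.42 (adjusted p = 0.00201) and 2.86 ± 0.42 (adjusted p = 0.00983), with 6.25% and 2.05% of genes called. The clusters also changed the excitatory neuron-like class, to 80 and 65 cells of pools 1 and 2 against 68 and 45. That class thus took in cells that the gates had placed in another class or left unplaced. Cells dropped from the radial glia-like class can be among them, so the neurons compared were not the same. The limit of 7 markers changed the interneuron-like class to 16 and 11 cells, against 16 and 8. Against interneuron-like cells the 2 stricter choices gave 3.32 and 3.50, with 7.27% and 10.5% of genes called. Gas1 was the 1 member of 7 called in each of these fits. Cell names carry a letter A or B whose meaning the labels do not give, and A stands in 12 of 15 and 17 of 20 radial glia-like cells of pools 1 and 2, in 8 of 18 and 13 of 17 Eomes-positive cells and in 32 of 68 and 25 of 45 excitatory neuron-like cells. All 7 Eomes-positive cells with Gas1 carried A. With A cells alone the difference in Gas1 from excitatory neuron-like cells was 1.65 (adjusted p = 0.9999).

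**Figure D1:**
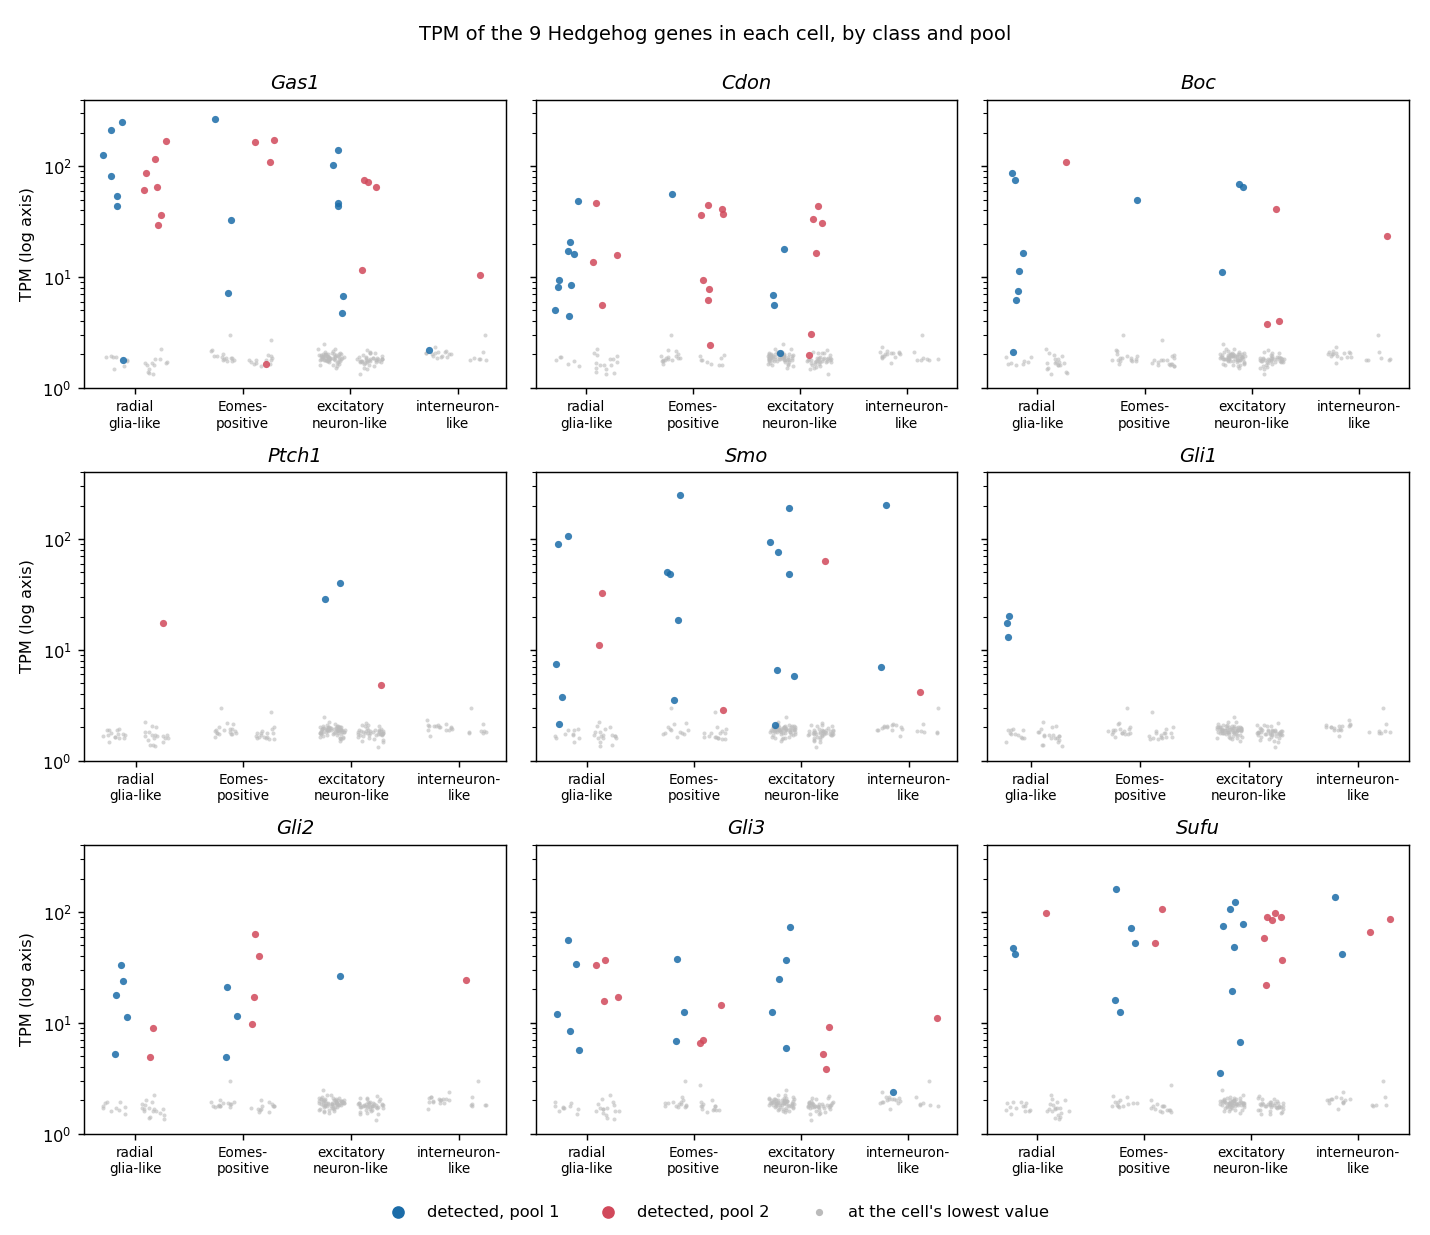
TPM of each of the 9 genes (log axis) in every placed cell, by class (radial glia-like, Eomes-positive, excitatory neuron-like, interneuron-like) and pool; coloured points are cells with the gene detected and grey points are cells at their lowest value. Gas1 stands at 29.6 TPM or more in 13 of 35 radial glia-like cells, and all 3 cells with Gli1 are radial glia-like cells of pool 1.

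Cdon, an immunoglobulin-family co-receptor, was detected in 13 of 35 radial glia-like cells, 9 of 35 Eomes-positive cells, 10 excitatory neuron-like cells (8.85%) and 0 of 24 interneuron-like cells, which allows a share of up to 12.5%. Its values were lower than those of Gas1, with 4.44 to 48.3 TPM and a median of 13.6 TPM in the radial glia-like cells with the gene and 2.44 to 56.5 TPM with a median of 36.2 TPM in such Eomes-positive cells. The pools went opposite ways. In pool 1 Cdon was detected in 9 of 15 radial glia-like cells and 1 of 18 Eomes-positive cells, and in pool 2 in 4 of 20 and 8 of 17. The log2 difference of radial glia-like from Eomes-positive cells was accordingly 1.01 in pool 1 and -0.73 in pool 2, and 0.14 ± 0.35 over both (adjusted p = 0.961). Against excitatory neuron-like cells it was 0.68 ± 0.35 for radial glia-like cells (adjusted p = 0.665) and 0.54 ± 0.35 for Eomes-positive cells (adjusted p = 0.757). In pools 1 and 2 it was 1.19 and 0.16 for radial glia-like cells and 0.18 and 0.89 for Eomes-positive cells.

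Boc, a relative of Cdon, was detected in 8 of 35 radial glia-like cells, 1 of 35 Eomes-positive cells, 6 excitatory neuron-like cells (5.31%) and 1 of 24 interneuron-like cells. In radial glia-like cells of pool 1 it stood at 87.7, 74.5, 16.5, 11.3, 7.53, 6.26 and 2.11 TPM, and in the 1 such cell of pool 2 at 108.6 TPM. The gene was thus in 7 of 15 cells in pool 1 and 1 of 20 in pool 2, and the pool means were 14.6 and 7.04 TPM. The difference from Eomes-positive cells was 0.55 ± 0.28 (adjusted p = 0.624) and that from excitatory neuron-like cells 0.52 ± 0.28 (adjusted p = 0.691). All 8 radial glia-like cells with Boc held Neurod6 at 100 TPM or more, and without such cells the difference from excitatory neuron-like cells was -0.27.

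Ptch1, the Hedgehog receptor and a target of the pathway, was rarely detected, in 4 of 221 cells (1.81%). It stood at 17.6 TPM in 1 of 35 radial glia-like cells and at 4.80 to 40.4 TPM in 3 excitatory neuron-like cells (2.65%). It was detected in 0 of 35 Eomes-positive cells, which allows a share of up to 8.57%, and in 0 of 24 interneuron-like cells. Ptch1 and Gli1 were each detected in fewer than 10 cells and fell under the filter on low values. Without that filter the limma log2 difference of radial glia-like from excitatory neuron-like cells was -0.06 ± 0.07 for Ptch1 (adjusted p = 0.811) and 0.21 ± 0.14 for Gli1 (adjusted p = 0.720), and neither gene was called in any comparison.

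Smo, the transmembrane protein that Ptch1 holds in check, was detected in 7 of 35 radial glia-like cells, 6 of 35 Eomes-positive cells, 8 excitatory neuron-like cells (7.08%) and 3 of 24 interneuron-like cells. It stood at 105.8, 90.9, 7.47, 3.78 and 2.12 TPM in radial glia-like cells of pool 1 and at 32.9 and 11.02 TPM in those of pool 2. In Eomes-positive cells it stood at 251, 50.1, 48.8, 18.8 and 3.53 TPM in pool 1 and at 2.89 TPM in pool 2. No class stood apart, while pool 1 held more cells with Smo than pool 2 in radial glia-like (5 of 15 against 2 of 20), Eomes-positive (5 of 18 against 1 of 17) and excitatory neuron-like cells (7 of 68 against 1 of 45). The log2 difference of radial glia-like cells was 0.30 ± 0.34 against excitatory neuron-like cells (adjusted p = 0.910) and -0.01 ± 0.34 against Eomes-positive cells (adjusted p = 0.998).

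**Figure D2:**
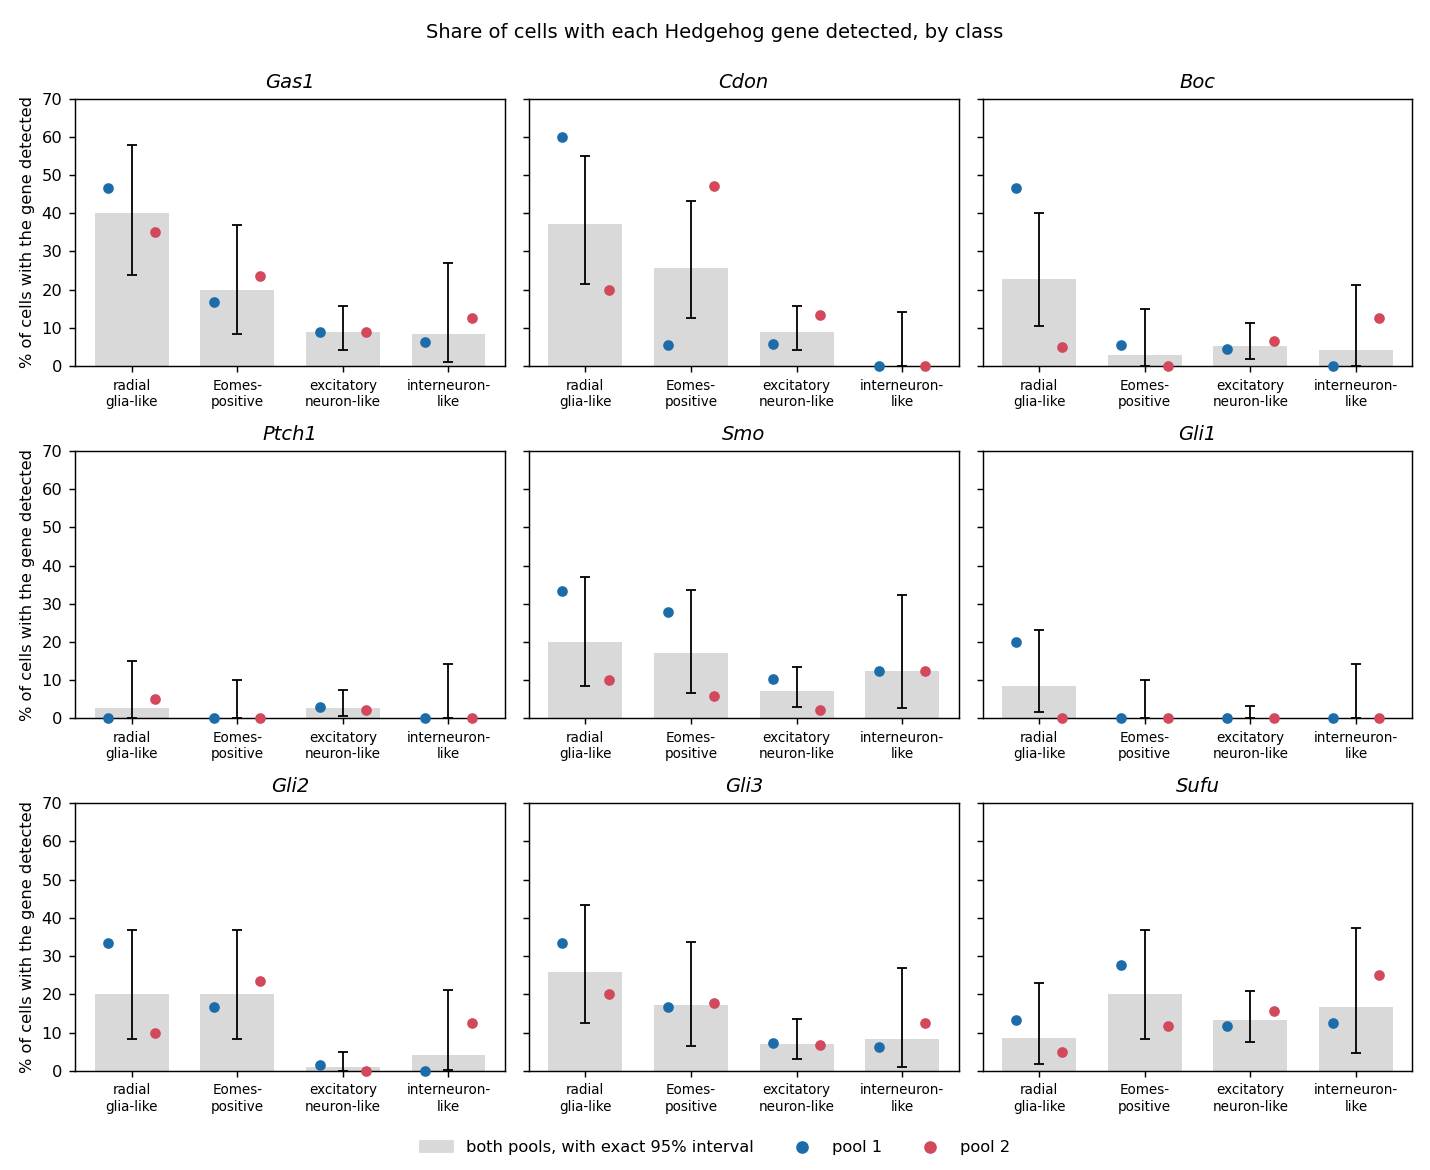
Share of cells (per cent) in which each gene was detected, by class, with bars for both pools, exact 95% intervals that cover counting error only, and points for each pool. Gas1 was detected in 40% of radial glia-like cells and 8.85% of excitatory neuron-like cells, and the pools lie furthest apart for Cdon in the first 2 classes and for Boc in radial glia-like cells.

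Gli1, the factor that the pathway switches on as its own target, was detected in 3 of 221 cells, at 20.03, 17.7 and 13.1 TPM. All 3 were radial glia-like cells of pool 1, and all 3 held 8 of the 8 markers. None of 35 Eomes-positive cells (a share of up to 8.57% is allowed), none of the excitatory neuron-like cells (up to 2.65%) and none of 20 radial glia-like cells of pool 2 had it. Each of these 3 cells also held Gas1, Cdon and Hopx. Most of the 11 radial glia-like cells with 8 markers did so too, with Gas1 in 9, Cdon in 8 and Hopx in 11.

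Gli2, the main activator of the family in mouse development, was detected in 7 of 35 radial glia-like cells and 7 of 35 Eomes-positive cells, against 1 excitatory neuron-like cell (0.885%) and 1 of 24 interneuron-like cells. In radial glia-like cells it stood at 33.1, 23.7, 17.8, 11.2 and 5.25 TPM in pool 1 and at 9.01 and 4.86 TPM in pool 2. In Eomes-positive cells it stood at 21.1, 11.5 and 4.88 TPM in pool 1 and at 63.8, 39.98, 17.2 and 9.81 TPM in pool 2. Both progenitor classes thus held the gene in 20% of cells and excitatory neuron-like cells in 0.885%. On pool means the differences from excitatory neuron-like cells were 0.41 ± 0.26 for radial glia-like cells (adjusted p = 0.788) and 0.53 ± 0.26 for Eomes-positive cells (adjusted p = 0.646), above 0 in both pools and not called. In pools 1 and 2 they were 0.74 and 0.09 for radial glia-like cells and 0.30 and 0.75 for Eomes-positive cells.

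Gli3, the main repressor of the family, was detected in 9 of 35 radial glia-like cells, 6 of 35 Eomes-positive cells, 8 excitatory neuron-like cells (7.08%) and 2 of 24 interneuron-like cells. In radial glia-like cells it stood at 55.8, 34.2, 11.9, 8.39 and 5.73 TPM in pool 1 and at 37.004, 33.2, 17.1 and 15.7 TPM in pool 2. The pools lay closest for Gli3 among the 7 tested members, with log2 differences of radial glia-like from excitatory neuron-like cells of 0.59 in pool 1 and 0.51 in pool 2. Over both pools this was 0.55 ± 0.22 (adjusted p = 0.508), and 1.22 ± 0.32 with 7 or 8 markers (adjusted p = 0.0560). The difference from Eomes-positive cells was 0.32 ± 0.22 (adjusted p = 0.744).

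Sufu, which holds Gli proteins in the cytoplasm, had another order. It was detected in 3 of 35 radial glia-like cells, 7 of 35 Eomes-positive cells, 15 excitatory neuron-like cells (13.3%) and 4 of 24 interneuron-like cells. Its median over all cells with the gene, 62.4 TPM, was the highest of the 9 genes, beside 60.8 TPM for Gas1. By class the medians were 47.8 TPM in radial glia-like, 52.4 TPM in Eomes-positive cells, and for neurons 74.01 TPM in the excitatory neuron-like class and 76.1 TPM in the interneuron-like class. Radial glia-like cells had the lowest mean of the 4 classes, and the differences were -0.23 ± 0.35 from excitatory neuron-like cells (adjusted p = 0.945), -0.48 ± 0.35 from Eomes-positive cells (adjusted p = 0.757) and -0.63 ± 0.35 from interneuron-like cells (adjusted p = 0.380).

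As a group, 6 of the 7 tested members had a positive difference between the radial glia-like and the excitatory neuron-like class, with a median log2 difference of 0.52, where 48.2% of all tested genes were above 0 and their median was -0.02. For Eomes-positive against excitatory neuron-like cells 6 of 7 were above 0 as well, with a median of 0.31, where 58.6% of all genes were above 0 with a median of 0.09. None of the 7 was called for Eomes-positive cells, where 0% of genes were called and 882 had an unadjusted p below 0.05. These comparisons share the excitatory neuron-like cells. Gli2 was in 16 cells, 7 of them radial glia-like and 7 Eomes-positive, and would have missed the filter of 10 cells had either class lacked it. Its sign in these counts was thus partly set by that filter. For the interneuron-like against the excitatory neuron-like class 0 of 7 members were called, where 0.644% of genes were.

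**Figure D3:**
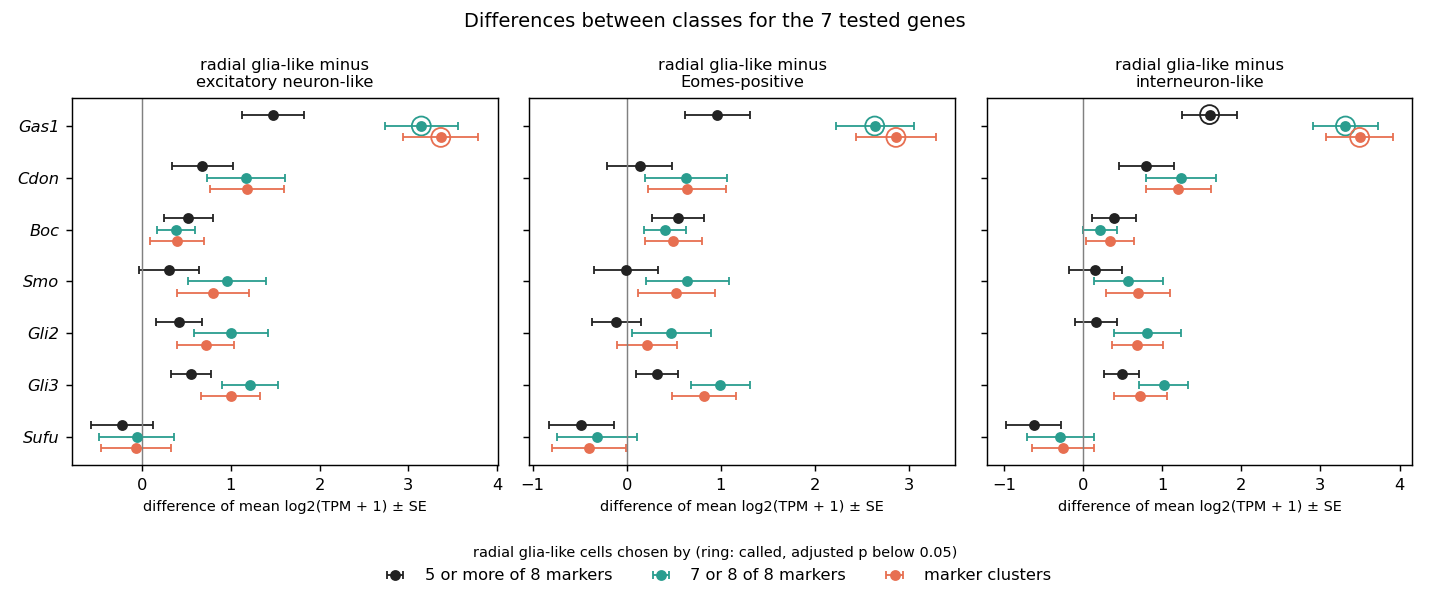
Difference of the mean log2(TPM + 1) over pools, with its SE, for the 7 tested genes: radial glia-like cells minus excitatory neuron-like, Eomes-positive and interneuron-like cells, with radial glia-like cells chosen by 5 or more of 8 markers (black), 7 or 8 markers (green, where the interneuron-like class also changes) or marker clusters (orange, where the excitatory neuron-like class also changes). Rings mark called differences, all of which are of Gas1, and Gas1 against excitatory neuron-like cells moves to 3.15 and 3.37 under the stricter choices against 1.47.

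Several members differed in how often they were detected by the number of radial glia markers a cell held. Among radial glia-like cells with 7 or 8 markers against those with 5 or 6, Gas1 was detected in 12 of 15 against 2 of 20. Gli2 was in 7 of 15 against 0 of 20, Gli3 in 8 of 15 against 1 of 20 and Smo in 6 of 15 against 1 of 20. Cdon was in 8 of 15 against 5 of 20, while Boc, in 3 of 15 against 5 of 20, and Sufu, in 2 of 15 against 1 of 20, differed less or the other way, and the 1 cell with Ptch1 was among those with 5 or 6. Cells with more markers also had more genes detected, with a median of 4792 against 4170.5, and fewer of them reached 100 TPM of Neurod6 (8 of 15 against 18 of 20). The part of either in these shares was not tested, and since cells of a pool are not replicates the shares were not tested either.

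Eomes-positive cells were divided by marker number too. With 5 or more radial glia markers, against fewer, Gas1 was detected in 7 of 15 against 0 of 20 cells, Gli2 in 6 of 15 against 1 of 20, Gli3 in 5 of 15 against 1 of 20 and Cdon in 6 of 15 against 3 of 20. Smo, in 3 of 15 against 3 of 20, and Sufu, in 4 of 15 against 3 of 20, showed little of it. All 7 Eomes-positive cells with Gas1 thus held at least 5 radial glia markers. Median detected genes were 4635 against 4067.

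**Figure D4:**
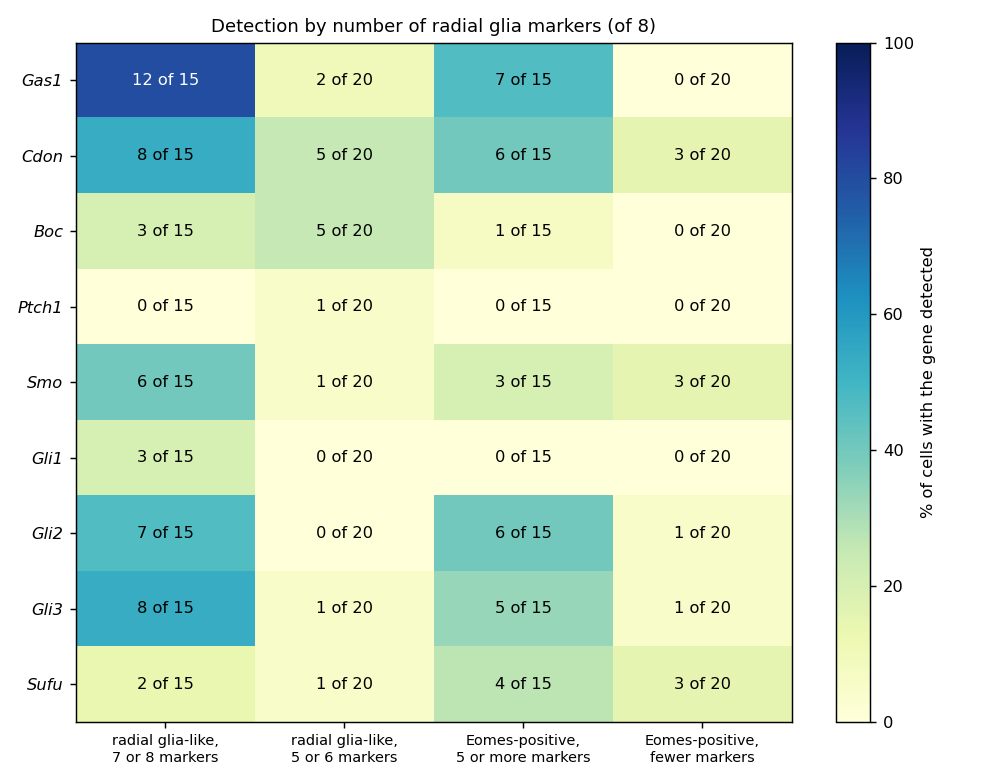
Share of cells (colour, per cent) and number of cells in which each gene was detected, for radial glia-like cells with 7 or 8 and with 5 or 6 of the 8 radial glia markers and for Eomes-positive cells with 5 or more and with fewer. Gas1 goes with the marker number in both classes, at 12 of 15 against 2 of 20 and 7 of 15 against 0 of 20 cells.

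Hopx, the gene of the study's title, was detected in 22 of 35 radial glia-like cells. Gas1 was found in 12 of these 22 against 2 of 13 without Hopx, Cdon in 12 of 22 against 1 of 13 and Gli3 in 9 of 22 against 0 of 13. Gli2 was in 6 of 22 against 1 of 13, Smo in 6 of 22 against 1 of 13, Boc in 6 of 22 against 2 of 13 and Sufu in 2 of 22 against 1 of 13. Hopx went with the marker number as well, in 14 of 15 radial glia-like cells with 7 or 8 markers against 8 of 20 with 5 or 6. Cells with Hopx had more genes detected, with a median of 4614 against 4103, and 12 of the 15 radial glia-like cells of pool 1 but 10 of the 20 of pool 2 had it.

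Radial glia-like cells with at least 2 of 5 cycle genes (Mki67, Top2a, Cdk1, Birc5 and Ccnb1), 19 of the 35, were set beside the other 16. Gli3 was detected in 8 of 19 cells with cycle genes against 1 of 16 others, Gli2 in 6 of 19 against 1 of 16 and Gas1 in 10 of 19 against 4 of 16. Boc, in 2 of 19 against 6 of 16, and Sufu, in 0 of 19 against 3 of 16, lay the other way. Cdon, in 7 of 19 against 6 of 16, and Smo, in 4 of 19 against 3 of 16, differed little. Cells with cycle genes had more genes detected, with a median of 4512 against 4265. Pool 2 gave 13 of the 19 cells with cycle genes and 7 of the other 16. Eomes-positive cells did not share the pattern. There Gli2 was in 2 of 13 cells with cycle genes against 5 of 22 others. Gas1, in 3 of 13 against 4 of 22, and Gli3, in 3 of 13 against 3 of 22, differed less than in radial glia-like cells.

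Cells with more than 1 member were counted in each class. Such counts rise with the share of cells in which each gene is detected, so they do not show that members go together. At least 2 of the 9 were detected in 17 of 35 radial glia-like cells (48.6%), 12 of 35 Eomes-positive cells (34.3%), 13 excitatory neuron-like cells (11.5%) and 3 of 24 interneuron-like cells (12.5%). In radial glia-like cells this was 11 of 15 in pool 1 and 6 of 20 in pool 2. The highest number in 1 cell was 6, in a radial glia-like cell.

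A co-receptor was detected in 22 of 35 radial glia-like (62.9%), 14 of 35 Eomes-positive (40%) and 24 excitatory neuron-like cells (21.2%), and a Gli factor in 13 (37.1%), 10 (28.6%) and 9 (7.96%) of these cells. Both were found in the same cell in 12 of 35 radial glia-like, 6 of 35 Eomes-positive, 1 excitatory neuron-like and 1 of 24 interneuron-like cells. Of the 13 radial glia-like cells with a Gli factor 12 held a co-receptor, against 6 of 10 such Eomes-positive cells and 1 of 9 such excitatory neuron-like cells. Of the 24 excitatory neuron-like cells with a co-receptor 23 had no Gli factor, near the 92% of all cells of that class without one. Among the 70 radial glia-like and Eomes-positive cells, Gas1 was in 21, Gli2 in 14 and Gli3 in 15, and Gas1 was present in 10 of the 14 cells with Gli2 and 9 of the 15 with Gli3. Smo shared 4 cells with Gli3 and 2 with Gli2, of 13 cells with Smo.

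**Figure D5:**
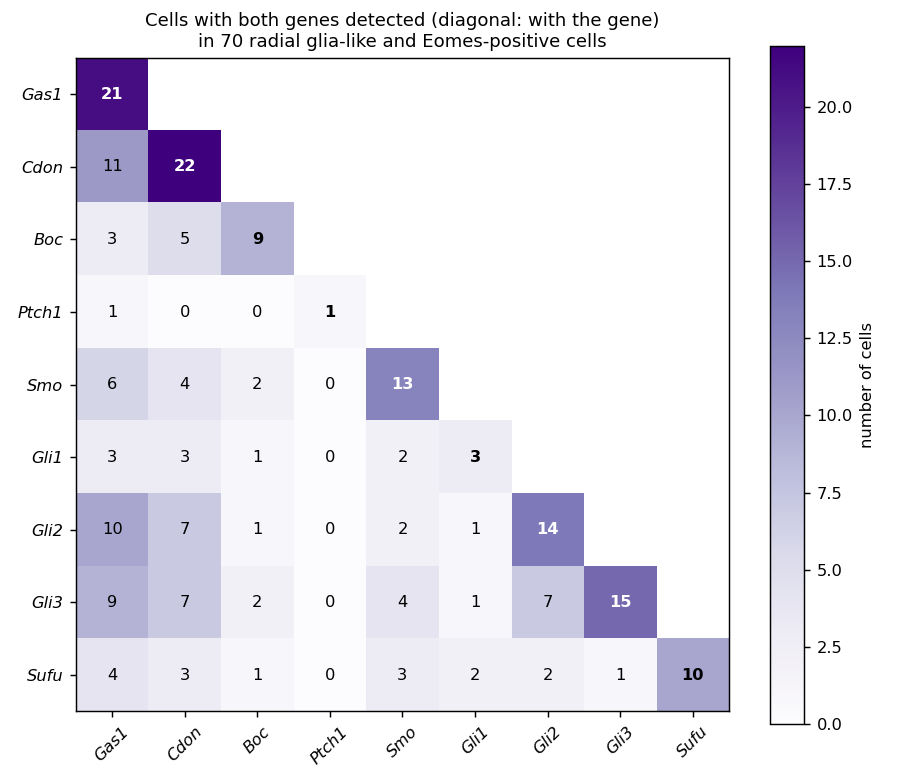
Number of cells, of the 70 radial glia-like and Eomes-positive cells, in which both genes of a pair were detected, with the number for the gene alone on the diagonal. Gas1 shares 11 cells with Cdon, 10 with Gli2 and 9 with Gli3.

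Over all 221 cells, the genes most like Gas1 by Pearson's r of log2(TPM + 1) were Sall3 (0.592), Gpx8 (0.556), Notch1 (0.553), Id1 (0.525) and Sox9 (0.523), of 9317 genes in at least 20 cells. Cdon was most like Sox9 (0.425), Mcm3 (0.414), Id1 (0.406), Acsbg1 (0.401) and Rftn2 (0.400). Sox9, itself 1 of the 8 markers, and Id1 stood on both lists, and Cdon ranked 81 of 9317 for likeness to Gas1 (r = 0.322). Gli3 was most like Slco1c1 (0.465), Smpdl3a (0.386), Tmem132b (0.377), E130114P18Rik (0.375) and Sox21 (0.374). The values for Smo, with Mlc1 (0.324), Tagln2 (0.313), Tmem64 (0.297), Cpne3 (0.295) and Pla2g7 (0.287), and for Sufu, with Aifm1 (0.2996), Snhg8 (0.265), Tbcel (0.253), Coq2 (0.238) and Dbp (0.237), were too weak to read. Cells share pool, class and depth, and these values describe the table only.

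Of 54 other Hedgehog pathway genes, the ligand Shh was detected in 0 of 221 cells, which allows a share of up to 1.36%. The ligand Ihh was found in 2 cells and Dhh in 2. Hhip, a decoy receptor and target, was found in 2 radial glia-like and 2 Eomes-positive cells and in no neuron-like cell. Of 37 pathway genes tested outside the members, 0 were called by limma between radial glia-like cells and the excitatory neuron-like class, in either direction, as were 0% of all tested genes, and 5 had an unadjusted p below 0.05 (Gpc6, Btrc, Csnk1e, Ccnd2 and Olig2). The surface group held 3 tested genes, with 2 above 0. Gpc6, a glypican that binds Hedgehog, was detected in 6 of 35 radial glia-like, 4 of 35 Eomes-positive and 4 excitatory neuron-like cells, and its difference from excitatory neuron-like cells was 0.64 ± 0.20 (adjusted p = 0.311), or 1.29 ± 0.26 with 7 or 8 markers (adjusted p = 0.0226).

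Among 7 tested genes known as Hedgehog targets, 6 were above 0 in radial glia-like and 7 in Eomes-positive cells, each against the excitatory neuron-like class, with none called, where 48.2% and 58.6% of all genes were above 0. For radial glia-like minus Eomes-positive cells 2 of 7 were above 0, with a median of -0.25, where 40.9% of all genes were. With 7 or 8 markers and with the clusters these were 5 and 6 of 7. Ccnd2, a D-type cyclin, was detected in 31 of 35 radial glia-like, 31 of 35 Eomes-positive and 64 excitatory neuron-like cells. Its mean was 146 TPM in radial glia-like, 230 TPM in Eomes-positive and 35.4 TPM in excitatory neuron-like cells, a log2 difference of 2.32 ± 0.63 for radial glia-like cells (adjusted p = 0.21996). With 7 or 8 markers Ccnd2 (3.92 ± 0.74, adjusted p = 0.0176) and Olig2, a bHLH factor of ventral and glial progenitors (1.89 ± 0.33, adjusted p = 0.0127), were higher, both called. Of all tested genes 4.08% were called there. With the marker clusters Ccnd2 (4.14), Olig2 (2.01) and Ccnd1, another D-type cyclin (1.96 ± 0.42, adjusted p = 0.0197), were called, and Olig2 was also called against Eomes-positive cells. Of all tested genes 6.25% were called there against the excitatory neuron-like class and 2.05% against Eomes-positive cells. These 3 targets have other inputs besides Hedgehog. Of the cilium genes 3 of 7 and of the kinase and turnover genes 7 of 17 were above 0 for the radial glia-like against the excitatory neuron-like class, with none called by the gates of 5 and 7 markers or the clusters.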

How the data were processed

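Single cells of 2 pools were captured with a Fluidigm C1 chip, cDNA was made with the SMARTer v4 kit and libraries with Nextera XT, per the labels' protocols. The authors deposited TPM values made with TopHat2 (2.0.14), Cufflinks (2.2.1) and Bowtie2 (2.2.6), with the build mm10, per the submitters' processing notes. Each cell's values sum to 1000000, no value is 0, and all features without signal share the cell's lowest value. TPM hide read numbers, and detection depends on how many genes a cell yielded (between 2146 and 6727).

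Cells were placed by markers: Eomes detected (Eomes-positive), otherwise at least 5 of 8 radial glia markers and fewer than 3 interneuron markers (radial glia-like), at least 3 of 8 interneuron markers and fewer than 5 radial glia markers (interneuron-like), or at least 3 of 8 excitatory neuron markers, at most 3 radial glia markers and fewer than 3 interneuron markers (excitatory neuron-like). Cells with 3 markers of vessel, meningeal or microglial cells were left out. Classes rebuilt this way can differ from the study's. No doublet caller was run. Leaving out radial glia-like and Eomes-positive cells at 100 TPM of Neurod6 was tried instead. Per class and pool, log2(TPM + 1) was averaged over cells, and these means (8 profiles, 4 residual degrees of freedom) entered a limma fit (limma 3.58.1, R 4.3.3, trend and robust, two-sided), with Benjamini-Hochberg adjustment over the 10722 genes detected in at least 10 cells, gate markers and spike-ins left out. The model was run on simulated profiles with independent normal noise around each gene's mean. This does not check it for genes mostly at the lowest value. A fold change on this scale understates the change of low genes. Nothing says that cells of a pool are independent animals, so the pool is the replicate. The pool number pairs the classes by design, because 1 pool holds the cells of the same 8 neocortices, although their deviations from class means were correlated by -0.01 to 0.06 across genes. The pool as a block was an alternative.

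All 9 members, the pathway genes called, and the 5 genes most like each member detected in at least 20 cells are named. The members, markers, lists and tests were chosen with earlier results of these data known. A limit of 1.36% for a count of 0 in 221 cells is 3 cells of the total.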

Additional observations from a re-analysis of the deposited data

Results flagged for a closer look

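Cdon was higher in radial glia-like than in Eomes-positive cells of pool 1, by 1.01 on the log2 scale, and lower in pool 2, at -0.73. The opposite directions of the pools drew attention here, and their difference was not tested. The Eomes-positive cells with Cdon numbered 1 of 18 in pool 1 and 8 of 17 in pool 2. Gli3 was detected in 5 of the 14 cells that the markers left unplaced and that entered no comparison, against 8 excitatory neuron-like cells (7.08%).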

How the results depend on the processing

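The share of tested genes called by limma was 0% for radial glia-like minus excitatory neuron-like cells, and 0.699% with a gate of 6 markers, 4.08% with 7, 6.25% with marker clusters, 0.280% with the log2 of the mean TPM, 0.0280% with quantile normalization, 1.39% with profiles weighted by cell number and 0.522% without cells at 100 TPM of Neurod6. For radial glia-like minus Eomes-positive cells it was 0%, and 0.131%, 0.858% and 2.05% with 6 markers, 7 markers and clusters and 0.0280% with weighting. Eomes-positive minus excitatory neuron-like cells gave 0%, and 0.112% with the log2 of the mean and 0.998% with weighting. Radial glia-like minus interneuron-like cells gave 1.75%, and 0.764% without a filter on low values, 2.68% with the log2 of the mean, 1.09% with weighting, 0.709%, 3.12% and 7.27% with 4, 6 and 7 markers, 10.5% with clusters and 0.140% with suffix A alone. Interneuron-like minus excitatory neuron-like cells gave 0.644%, and 0.308% without a filter, 0.289% with the log2 of the mean, 1.18% with weighting, 0.326% and 0.224% with 4 and 7 markers, 0.382% with clusters, 0% without Neurod6 cells and 0.149% with suffix A. Cells at 100 TPM of Neurod6 were left out of the radial glia-like and Eomes-positive classes only. Interneuron-like and excitatory neuron-like cells thus stayed the same in that setting, and what changed was the spread shared by the fit. The cause of the other shifts was not tested.

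With the replicate block (pool) the 5 shares were 0%, 0%, 0%, 1.63% and 0.560%, and Gas1 against interneuron-like cells was still called (adjusted p = 0.0491), so the block changed no call of a member. Of 70 values of member differences with 1 pool left out 11 had the opposite sign (-0.73 to 0.44), none of a called difference. With both pools there were 406 alternative fits of member differences, and some kept the class means and could not change sign. Among these were the pool block, the fits without a filter, and Eomes-positive minus excitatory neuron-like cells under other marker gates. Of all 406 fits 23 changed sign, none of them called. For radial glia-like minus Eomes-positive cells these were Cdon (-0.0597 with the log2 of the mean, -0.0586 with 4 markers, -0.0898 with suffix A), Smo (0.1096 with the log2 of the mean, 0.00633 with quantile normalization, 0.153, 0.644 and 0.528 with 6 markers, 7 markers and clusters) and Gli2 (0.0223, 0.473 and 0.217 with those 3). Without Neurod6 cells Boc in radial glia-like cells was -0.266 against excitatory neuron-like and -0.395 against interneuron-like cells. Against interneuron-like cells Smo was -0.0336 with quantile normalization and Gli2 -0.0386 with 4 markers. For interneuron-like minus excitatory neuron-like cells the values were 0.0209 (quantile) and 0.0678 (suffix A) for Gas1, -0.0558 (log2 of the mean) and -0.146 (suffix A) for Boc, -0.264 (suffix A) for Smo, -0.148 (log2 of the mean) and -0.0905 (4 markers) for Gli3 and -0.0368 (suffix A) for Sufu.

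The share of radial glia-like cells with 2 or more members was 48.6%, and 80% with 7 markers, 75% with clusters and 5.71% where detected means 50 TPM or more. Leaving out each pool in turn gave 30% to 73.3%. At 50 TPM that share was 8.57% in Eomes-positive, 1.77% in excitatory neuron-like and 0% in interneuron-like cells, and interneuron-like cells gave 0% to 37.5% with each pool left out in turn. Without Neurod6 cells too few Eomes-positive cells were left in pool 1 for a fit, and with 1 pool no test is left. With 2 pools a class, a missed threshold does not show that classes are alike, and at an unknown depth a gene at the lowest value may still be expressed.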
